A study of Mus musculus with 20 samples.

Results

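*Cdh3* and *Cdh4* are the genes of P-cadherin and R-cadherin, which belong to the classical cadherins, and both were followed here in every library of a study of mouse nephron progenitor cells (NPCs). They are the rows ENSMUSG00000061048 (*Cdh3*) and ENSMUSG00000000305 (*Cdh4*) of the table of normalized counts, chosen because the deposited comparison tables pair these identifiers with those symbols. They are thus 2 of 31130 genes, and both were counted in all 20 libraries. In the RefSeq annotation of GRCm38.p6, *Cdh3* spans chr8:106510852-106556911 and *Cdh4* spans chr2:179442423-179899377. *Cdh1*, the gene of E-cadherin, lies 46439 bases from *Cdh3*.

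Classical cadherins span the cell membrane and hold cells together by binding a cadherin, the same or another, on the next cell when calcium is present. Inside the cell their tail binds β-catenin, which binds α-catenin, and α-catenin links the complex to actin. β-catenin also enters the nucleus as the Wnt pathway's partner of the Lef/Tcf transcription factors, so it sits both in adhesion and in transcription. In the kidney, induced NPCs leave a mesenchymal state and form an epithelium, and P- and R-cadherin are both known from early nephron structures.

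The cells were primary NPCs from E16.5 kidneys of Cas9-EGFP mice crossed with SWR/J mice, so every group, controls included, carried Cas9 and EGFP. Cells were transfected with sgRNAs and mCherry mRNA, kept for 48 h, and then given CHIR at 1.25 µM (low) or 5 µM (high) for another 24 h. CHIR is an inhibitor of the kinase GSK3β that stabilises β-catenin. Sorted mCherry+ cells were sequenced in bulk. The target was GFP in CTRL, *Ctnna1* in α-catenin KO and *Ctnnb1* in β-catenin KO, while QCKO combined the sgRNAs of *Cdh3* and *Cdh4* with those of *Cdh2* and *Cdh11*. There were 3 libraries of CTRL (replicates 1, 2 and 3), 3 of β-catenin KO (1, 2 and 3), 2 of α-catenin KO (1 and 3) and 2 of QCKO (2 and 3) in each CHIR condition. A replicate number stands for the same date in the titles of all groups. The sgRNAs edit a population of cells and not a clone, so each knockout library can hold unedited cells. The labels name no animals or litters, so p-values measure only the spread between these libraries.

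Recovered totals lay between 18124772 and 28472412 reads per library, with a median of 21449823. *Cdh3* had 310 to 5451 reads and *Cdh4* 1547 to 9758 reads per library, so the counting error of a single value was at most 5.68% for *Cdh3* and 2.54% for *Cdh4*. *Ctnna1* had 3599 to 3790.2 normalized counts in α-catenin KO against 7749 to 10082 in CTRL in low CHIR, and 3564 to 3621 against 5817 to 9314 in high CHIR. *Ctnnb1* is paired with no identifier in the tables and was not analysed here. *Six2*, the defining gene of NPCs, lay between 943 and 1642 in CTRL in low CHIR.

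The sgRNAs of both genes are shown because QCKO is the group in which the genes were themselves the targets, beside that of *Cdh11*, whose transcript level is compared with theirs below. Capitals mark the 12 bases nearest the PAM, the end at which Cas9 is least tolerant of mismatches. The place of the target sites within the genes was not analysed here.
Cdh3 sgRNA: ccgaugaaGCCCGCUCGGUA
Cdh4 sgRNA: ccauccccAGGCCCACCGUG
Cdh11 sgRNA: caccagcaCAGGGUCAGGCC
All of them are 20 bases long, with a GC content of 65.0% (*Cdh3*), 75.0% (*Cdh4*) and 70.0% (*Cdh11*).

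Both genes were expressed in uninduced NPCs and stood at a higher level in high CHIR in each of the genotypes in which *Ctnnb1* was not targeted. In CTRL, the normalized count of *Cdh3* was 277, 726 and 612 in low CHIR against 3588, 2557 and 3720 in high CHIR (replicates 1, 2 and 3). *Cdh4* had 2494, 1888 and 2404 in low CHIR against 8839.6, 7756 and 7647 in high CHIR. Every high CHIR library lay above every low CHIR library for both genes, and replicate 1 stood out in low CHIR as the lowest value of *Cdh3*. Here and below, the share of all genes whose libraries separate in this way was not computed, so such separation is a description. The means were 538 ± 233 and 3288 ± 637 (SD, n = 3) for *Cdh3*, and 2262 ± 327 and 8081 ± 659 (SD, n = 3) for *Cdh4*. The fitted log2 fold change on the scale of log2(normalized count + 1) was 2.70 (SE 0.39) for *Cdh3*, or 6.51-fold, and 1.84 (SE 0.19) for *Cdh4*, or 3.59-fold. These values carry no test, since the only deposited list that gives either gene its symbol holds genes that differed in this contrast. A gene is said to be called, to rise or to fall where limma on this scale gave a Benjamini-Hochberg adjusted p below 0.05 together with a log2 fold change beyond 0.5 in size, and by this rule 10.7% of 16516 genes were called in this contrast. In bulk libraries, more cells that express a gene and more RNA per cell cannot be told apart.

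**Figure D1:**
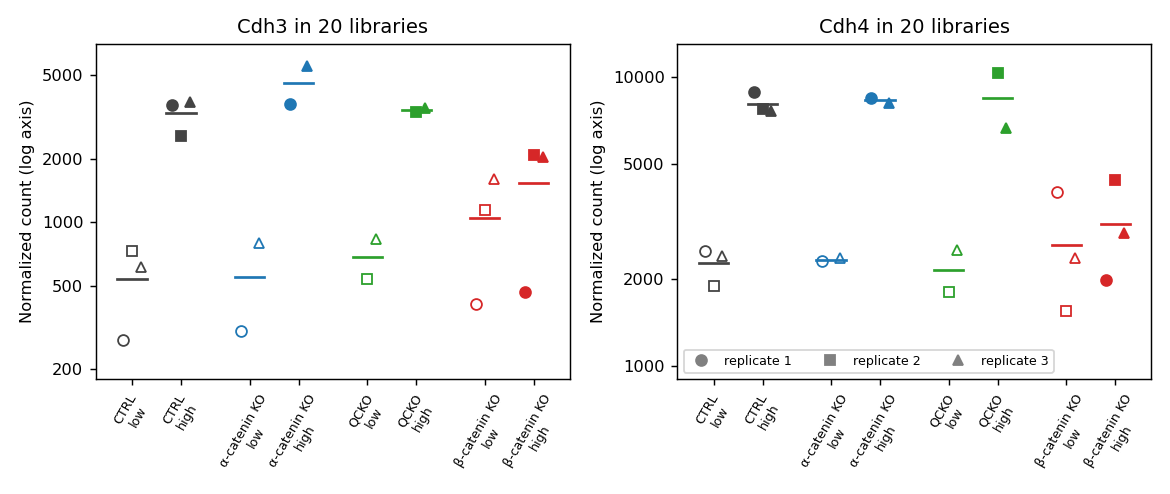
Normalized counts of *Cdh3* (left) and *Cdh4* (right) in each library, on a log axis, by genotype and CHIR condition; open symbols are low CHIR, filled symbols high CHIR, symbol shapes mark the replicate number and lines the group means. In CTRL, α-catenin KO and QCKO all high CHIR libraries lie above all low CHIR libraries, whereas in β-catenin KO the ranges overlap for both genes.

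Both genes also rose with CHIR in each of α-catenin KO and QCKO. The deposited list that names them does not use these libraries, although the pair was singled out with earlier results of all libraries known. In α-catenin KO, *Cdh3* had 304 and 799 in low CHIR against 3632 and 5497 in high CHIR (replicates 1 and 3). In QCKO it had 535 and 829 in low CHIR against 3347 and 3481 in high CHIR (replicates 2 and 3). No low CHIR library reached any high CHIR library in either knockout, and the share of all genes that separate so was not computed. The rise of *Cdh3* was 3.18 on the log2 scale (SE 0.48, 9.05-fold, limma, adjusted p = 0.00202) in α-catenin KO and 2.36 (SE 0.48, 5.12-fold, adjusted p = 0.0118) in QCKO. In α-catenin KO, *Cdh4* had 2306 and 2353 in low CHIR against 8427 and 8147 in high CHIR. In QCKO it had 1796 and 2512 in low CHIR against 10276 and 6666 in high CHIR. The ranges of *Cdh4* were again separate in both knockouts, with the wider spread in QCKO. Its rise was 1.83 on the log2 scale (SE 0.23, 3.56-fold, limma, adjusted p = 0.000608) in α-catenin KO and 1.96 (SE 0.23, 3.90-fold, adjusted p = 0.000293) in QCKO. Both genes were thus called in both contrasts, in which 4.39% (α-catenin KO) and 4.93% (QCKO) of 16516 genes were called. The rise of *Cdh3* was exceeded by 158 of these genes in α-catenin KO and by 336 in QCKO, and that of *Cdh4* by 480 and 457.

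The size of the rise of *Cdh3* in α-catenin KO depended on single libraries, with a log2 fold change of 2.48 without low CHIR replicate 1 (limma, adjusted p = 0.0284) and 3.87 without low CHIR replicate 3 (adjusted p = 0.00151), and it stayed called without any 1 of the 4. The call of *Cdh3* in QCKO depended on the libraries in the fit. It was lost when all 20 libraries shared the estimate of spread (adjusted p = 0.0818), and when QCKO low CHIR replicate 2 (log2 fold change 2.04, adjusted p = 0.133), QCKO high CHIR replicate 2 (2.38, adjusted p = 0.0776) or QCKO high CHIR replicate 3 (2.33, adjusted p = 0.0923) was left out. With the date as a replicate block, the contrast of α-catenin KO called 1186 genes in place of 725, that of QCKO 1278 in place of 814, and both genes stayed called in both.

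Within dates, both genes were higher in high than in low CHIR in 7 of 7 pairs of CTRL, α-catenin KO and QCKO libraries. For *Cdh3* the ratio of high to low CHIR was 12.9, 3.52 and 6.07 in CTRL (replicates 1, 2 and 3), 11.9 and 6.87 in α-catenin KO (1 and 3), and 6.24 and 4.19 in QCKO (2 and 3). For *Cdh4* it was 3.54, 4.11 and 3.18 in CTRL, 3.65 and 3.46 in α-catenin KO, and 5.72 and 2.65 in QCKO. The highest ratios of *Cdh3* were thus the 2 of replicate 1, while *Cdh4* kept within a narrower range. On the log2 scale the 7 ratios averaged 2.74 ± 0.70 (SD) for *Cdh3* and 1.87 ± 0.34 (SD) for *Cdh4*.

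Whether *Cdh3* responded more strongly than *Cdh4* was not settled, since the difference between them went with the date. The log2 ratio of *Cdh3* minus that of *Cdh4* was 1.87 (CTRL) and 1.71 (α-catenin KO) in replicate 1, -0.22 (CTRL) and 0.13 (QCKO) in replicate 2, and 0.93 (CTRL), 0.99 (α-catenin KO) and 0.66 (QCKO) in replicate 3. In β-catenin KO it was 1.18, -0.63 and 0.06 (replicates 1, 2 and 3). Replicate 1 had the largest difference and replicate 2 the smallest in each genotype that had them. The 7 pairs outside β-catenin KO come from only 3 dates, so a sign-flip test that took them as separate (exact permutation p = 0.0469) gives too small a p, and 3 of them are CTRL pairs, which carry no test. With pairs averaged per date and CTRL left out, an analysis added after the data were seen, the differences were 1.71, 0.13 and 0.82 (mean 0.89 ± 0.79, SD, n = 3 dates). An exact two-sided sign-flip permutation test of these gave p = 0.25, the smallest that 3 dates allow.

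**Figure D2:**
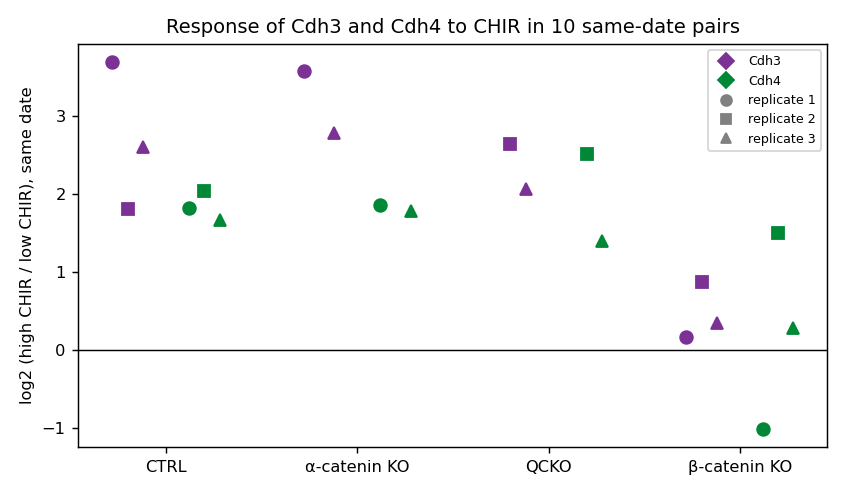
Log2 ratio of high to low CHIR for *Cdh3* (purple) and *Cdh4* (green) in the 10 pairs of libraries that share genotype and date; shapes mark the replicate number and the line at 0 no difference. Ratios of CTRL, α-catenin KO and QCKO lie between 1.41 and 3.69, while in β-catenin KO those of *Cdh3* lie between 0.18 and 0.87 and *Cdh4* of replicate 1 lies below 0.

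QCKO cells received sgRNAs against both genes, so these libraries also show the transcript level of a targeted gene. At the same date, *Cdh3* in QCKO was at 73.8% (replicate 2) and 135% (replicate 3) of CTRL in low CHIR, then at 131% and 93.6% in high CHIR. *Cdh4* was at 95.1% and 104% in low CHIR, and at 132% and 87.2% in high CHIR. Neither gene lay on one side of CTRL in both replicates. Since the genes were chosen in the CTRL libraries, no comparison of either gene with CTRL is independent of that choice, and here and below such differences and their limma intervals are a description with no test. The fitted difference of QCKO from CTRL was 0.42 on the log2 scale for *Cdh3* in low CHIR (95% interval -0.53 to 1.37) and 0.07 in high CHIR (-0.88 to 1.02). For *Cdh4* it was -0.08 in low CHIR (-0.54 to 0.38) and 0.04 in high CHIR (-0.42 to 0.50). For each gene the sign of the difference turned in 1 alternative fit in low CHIR and in 2 in high CHIR. As ratios to CTRL, the intervals ran from 0.693 to 2.59 (low) and 0.544 to 2.03 (high CHIR) for *Cdh3*, and from 0.687 to 1.30 and 0.746 to 1.41 for *Cdh4*. Over all genes, limma called 0.00605% of 16516 genes in low CHIR (1 gene, with 266 at an unadjusted p under 0.05, 1 by edgeR and 2 by DESeq2) and 0% in high CHIR (0 genes, with 1444 at an unadjusted p under 0.05, 0 by edgeR and 7 by DESeq2).

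*Cdh11*, a cadherin of mesenchymal cells and another target in QCKO, had lower values throughout. Its level was 70.1% and 42.3% of CTRL at the same date in low CHIR, then 53.4% and 30.0% in high CHIR. All 4 QCKO values of *Cdh11* lay below those of CTRL in the same condition (1818 and 2519 against 3594 to 5112 in low CHIR, 589 and 1005 against 1883 to 2092 in high CHIR). Its difference was not called (log2 fold change -1.36 in high CHIR, limma, adjusted p = 0.554, and adjusted p = 1.00 in low CHIR). *Cdh2*, the gene of N-cadherin and the fourth target, was at 67.2% and 92.4% of CTRL in low CHIR, and at 124% and 91.0% in high CHIR. A transcript level does not measure how many alleles were edited or how much protein was left.

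**Figure D3:**
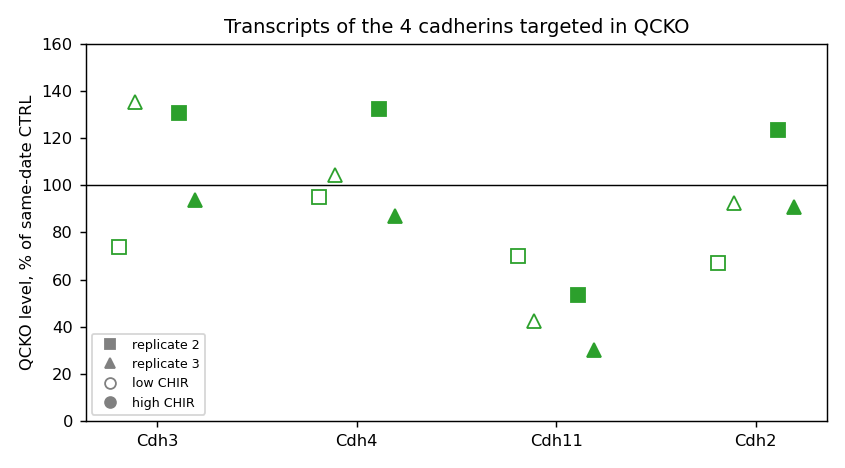
Transcript level in QCKO as a percentage of the CTRL library of the same date and CHIR condition (line at 100%) for the 4 cadherins targeted there; squares are replicate 2, triangles replicate 3, open symbols low CHIR and filled symbols high CHIR. Values of *Cdh3* run from 73.8% to 135%, of *Cdh4* from 87.2% to 132% and of *Cdh11* from 30.0% to 70.1%.

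In α-catenin KO, the link from cadherin complexes to actin is targeted. At the same date, *Cdh4* was at 92.5% and 97.9% of CTRL in low CHIR, and at 95.3% and 107% in high CHIR (replicates 1 and 3). *Cdh3* was at 110% and 131% of CTRL in low CHIR, and at 101% and 148% in high CHIR. All 4 ratios of *Cdh3* were thus above 100%, and the larger ones came from replicate 3. The fitted difference was -0.01 on the log2 scale (95% interval -0.96 to 0.94) for *Cdh3* in low CHIR and 0.46 (-0.49 to 1.41) in high CHIR. The latter was 0.16 without α-catenin KO replicate 3, 0.29 without CTRL replicate 2 and 0.76 without α-catenin KO replicate 1. The low CHIR difference of *Cdh3* turned its sign in 6 alternative fits. For *Cdh4* the fitted difference was 0.05 (-0.41 to 0.51) in low CHIR and 0.04 (-0.42 to 0.50) in high CHIR. limma called 0% of 16516 genes in either condition. The targeted gene *Ctnna1* was thus not called either, with log2 fold changes of -1.30 in low CHIR (limma, adjusted p = 0.314) and -1.05 in high CHIR (adjusted p = 0.472). Of them, 109 (low) and 928 (high CHIR) had an unadjusted p under 0.05, edgeR called 0 in each, and DESeq2 called 1 and 4.

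The size of the response was also set against that of CTRL, the contrast in which the genes were chosen, as an interaction term. For *Cdh3* the response in α-catenin KO minus that in CTRL was 0.47 on the log2 scale (95% interval -0.87 to 1.82), and in QCKO it was -0.35 (-1.69 to 1.00). For *Cdh4* the same differences were -0.01 (-0.67 to 0.64) and 0.12 (-0.53 to 0.77). Their sign turned in 1 alternative fit each for *Cdh3*, and in 5 (α-catenin KO) and 2 (QCKO) for *Cdh4*. The intervals of *Cdh3* were wider than those of *Cdh4*, and none of them shows the responses to be equal. In both interaction terms limma called 0% of 16516 genes, edgeR and DESeq2 called 0, and 258 (α-catenin KO) and 213 (QCKO) had an unadjusted p under 0.05.

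With *Ctnnb1* targeted, both genes had lower values than in CTRL in high CHIR, and the response of neither gene to CHIR passed the test. In β-catenin KO (replicates 1, 2 and 3), *Cdh3* had 411, 1143 and 1599.9 in low CHIR against 464, 2093 and 2034 in high CHIR. *Cdh4* had 3989, 1546 and 2354 in low CHIR against 1991, 4390.1 and 2879.6 in high CHIR. The ranges of low and high CHIR overlapped for both genes, and replicate 1 had the lowest *Cdh3* in both conditions. The highest *Cdh4* in low CHIR was that of replicate 1, which had the lowest *Cdh4* in high CHIR. At the same date the ratio of high to low CHIR was 1.13, 1.83 and 1.27 for *Cdh3* and 0.499, 2.84 and 1.22 for *Cdh4*. *Cdh3* was thus higher in high CHIR in 3 of 3 pairs and *Cdh4* in 2 of 3, and each ratio of *Cdh3* was below each of its ratios in the other genotypes. The fitted response was 0.46 on the log2 scale (95% interval -0.76 to 1.69, limma, adjusted p = 0.999) for *Cdh3* and 0.26 (-0.38 to 0.91, adjusted p = 0.999) for *Cdh4*. Its sign turned in 1 alternative fit for *Cdh3* and in 2 for *Cdh4*. In this contrast 0.018% of 16691 genes were called (3 genes, 40 with the replicate block, with 741 at an unadjusted p under 0.05).

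In high CHIR, *Cdh4* was at 22.5%, 56.6% and 37.7% of CTRL at the same date in β-catenin KO, and all 3 β-catenin KO libraries lay below all CTRL libraries. Its fitted log2 fold change was -1.46 (SE 0.30, 36.4% of CTRL), in a contrast that called 10.5% of 16691 genes. For *Cdh3* the log2 ratio to CTRL at the same date was -2.95, -0.29 and -0.87, again with all 3 libraries below all CTRL libraries. Its log2 fold change was -1.37 (SE 0.58, 38.7% of CTRL). High CHIR levels of CTRL took part in choosing both genes, and that choice favours a lower value in any other group. The highest high CHIR values of β-catenin KO (2093 for *Cdh3*, 4390.1 for *Cdh4*) also lay below the lowest of α-catenin KO and QCKO (3347 and 6666), a difference that was not tested. With the replicate block the contrast with CTRL called 2881 genes in place of 1757. The value of *Cdh3* passed the threshold with the block and not without it, which is given as a description. When both β-catenin KO libraries of replicate 1 were left out, which was tried after the data were seen, the difference from CTRL was -0.65 for *Cdh3* and -1.18 for *Cdh4*.

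In low CHIR, *Cdh3* stood above CTRL of the same date in all 3 β-catenin KO libraries, at 148%, 157% and 261%. The fitted difference was 0.87 (95% interval -0.35 to 2.09). It was 0.45 without CTRL replicate 1, 0.46 without β-catenin KO replicate 3 and 1.44 without β-catenin KO replicate 1. *Cdh4* was at 160%, 81.9% and 97.9% of CTRL, with a fitted difference of 0.12 (-0.52 to 0.76). Low CHIR levels of CTRL also took part in choosing both genes, and that choice favours a higher value in any other group. Here 0.0659% of 16691 genes were called (11 genes, 74 with the replicate block).

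The response in β-catenin KO minus that in CTRL was -2.24 on the log2 scale for *Cdh3* (95% interval -3.96 to -0.51) and -1.58 for *Cdh4* (-2.49 to -0.67). The term subtracted is the response in which the genes were chosen, which by itself favours a value below 0, so these differences carry no test either. Over all genes, 0.671% of 16691 were called for this term (112 genes, 400 with the replicate block). Without both β-catenin KO libraries of replicate 1, a choice made after seeing the data, it was -2.09 for *Cdh3* and -0.95 for *Cdh4*. Leaving out the high CHIR library of replicate 1 alone gave -1.52 for *Cdh3*, and leaving out the low CHIR one alone gave -2.81.

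The β-catenin KO libraries did not behave alike in the Wnt-responsive genes measured beside the 2 cadherins. *Lef1*, a Tcf family factor that Wnt signalling induces, had 62.3 in β-catenin KO replicate 1 in low CHIR, but 659.7 and 532 in replicates 2 and 3, where CTRL had 62.5 to 72.6. *Wnt4*, the Wnt ligand that induced NPCs make, had 30.1, 831 and 634 in the same libraries, where CTRL had 41.1 to 72.6. In high CHIR, *Lef1* had 93.6, 677 and 1020.0 in β-catenin KO against 948 to 1465 in CTRL. As for these genes, replicate 1 held the lowest *Cdh3* of β-catenin KO in both conditions, but in low CHIR the highest *Cdh3* was that of replicate 3 and the highest *Lef1* and *Wnt4* those of replicate 2. *Cdh4* in low CHIR had its highest value where *Lef1* and *Wnt4* had their lowest. The part of these differences between libraries in the results of either cadherin was not tested.

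**Figure D4:**
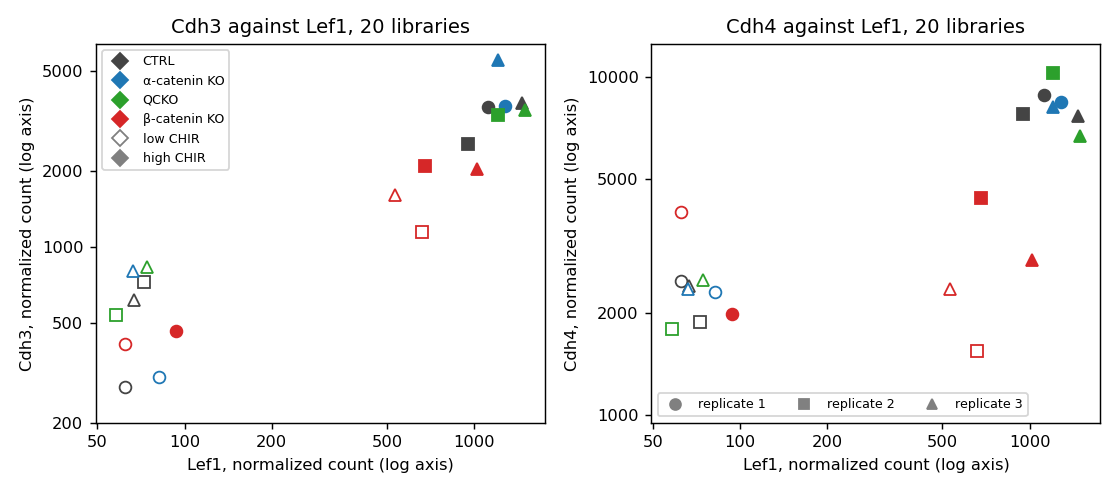
Normalized counts of *Cdh3* (left) and *Cdh4* (right) against those of *Lef1* in 20 libraries, both on log axes; colours mark genotypes, open symbols low CHIR, filled symbols high CHIR and shapes the replicate number. β-catenin KO replicate 1 stays at a *Lef1* count of 62.3 and 93.6, while the other 4 β-catenin KO libraries lie between 532 and 1020.0, with *Cdh3* between 1143 and 2093.

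Ordered by mean level over the 8 groups, *Cdh3* ran from α-catenin KO in high CHIR (4565 ± 1319, SD, n = 2) through QCKO (3414 ± 94.6, SD, n = 2) and CTRL (3288 ± 637, SD, n = 3) in high CHIR to β-catenin KO in high CHIR (1530.3 ± 924, SD, n = 3). β-catenin KO in low CHIR followed (1051 ± 600.0, SD, n = 3), then QCKO (682 ± 208, SD, n = 2), α-catenin KO (552 ± 351, SD, n = 2) and CTRL (538 ± 233, SD, n = 3) in low CHIR. Of neighbours in this order, only α-catenin KO and QCKO in high CHIR, and CTRL and β-catenin KO in high CHIR, had libraries that did not overlap. *Cdh4* ran from QCKO in high CHIR (8471 ± 2553, SD, n = 2) through α-catenin KO (8287 ± 198, SD, n = 2) and CTRL (8081 ± 659, SD, n = 3) to β-catenin KO in high CHIR (3087 ± 1213, SD, n = 3). Below them stood β-catenin KO (2629.9 ± 1245, SD, n = 3), α-catenin KO (2329.5 ± 33.7, SD, n = 2), CTRL (2262 ± 327, SD, n = 3) and QCKO (2154 ± 506, SD, n = 2) in low CHIR. For *Cdh4* only the step from CTRL to β-catenin KO in high CHIR had no overlap.

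The libraries of replicate 1 stood apart for *Cdh3* in low CHIR. Replicate 1 had the lowest *Cdh3* of its genotype in CTRL (277 against 612 and 726), α-catenin KO (304 against 799) and β-catenin KO (411 against 1143 and 1599.9). *Cdh4* of the same libraries was the highest of its genotype in CTRL and β-catenin KO and the lower of the pair in α-catenin KO. *Cdh1*, the neighbouring gene of *Cdh3* and a marker of epithelium, had 34.8, 448 and 167 in CTRL in low CHIR, 35.3 and 296 in α-catenin KO, and 63.4, 193 and 319 in β-catenin KO. Replicate 1 was thus lowest for *Cdh1* as well. In high CHIR, *Cdh1* had 24.9, 34.2 and 50.2 in CTRL, 77.3 and 309.6 in α-catenin KO, QCKO had 128 and 254, and the values were 40.4, 108 and 143 in β-catenin KO. Its highest value there was that of α-catenin KO replicate 3, which also had the highest *Cdh3*, and *Cdh1* was called against CTRL in none of the knockouts (limma, adjusted p = 0.704, 0.554 and 0.373 in high CHIR). In low CHIR replicate 1 was also lowest for *Jag1* (145, 218 and 185 in the 3 genotypes, against at least 505 in their other libraries), a Notch ligand of induced NPCs. The part of the date in the level of *Cdh3* was not tested apart from the fits with the replicate block.

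Over all 20 libraries, the 5 genes with a symbol whose pattern was most like *Cdh3* were *Ccnjl*, *Aopep*, *Igsf1*, *Rasgef1b* and *Sorl1*. They were ranked by the root-mean-square difference of log2(normalized count + 1), each gene centred on its own mean, among 10923 genes with a mean of at least 100, and held ranks 1 to 5 among all these genes. The difference was 0.39 for *Ccnjl* and 0.45 for *Sorl1*, where the spread of *Cdh3* about its own mean was 1.33. For *Cdh4*, the genes named are *Glul* (glutamine synthetase), *Hdac6*, *Slc29a3* and *Fam221a*, at ranks 2 to 5, with differences of 0.35 to 0.40 against an own spread of 0.90. *Aopep*, for example, had 566 ± 62.0 and 4206 ± 495 (SD, n = 3) in CTRL in low and high CHIR, compared with 1328 ± 792 and 1617 ± 916 in β-catenin KO. *Slc29a3* had 402 ± 49.0 and 1848 ± 781 in CTRL, compared with 491 ± 109 and 794 ± 156 in β-catenin KO. *Cdh4* held rank 157 for *Cdh3*, and *Cdh3* rank 1623 for *Cdh4*, with a difference of 0.82 between them. The ranks are a description, as libraries of one replicate number share a date.

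The nearest genes depended on the libraries and genes compared. With genes of a mean of at least 10 included, 4 of the 5 stayed for *Cdh3* (*Lypd1* in place of *Sorl1*), while for *Cdh4* *Gpr153* and *Hsd11b2* came in and *Slc29a3* and *Fam221a* dropped out. Without the β-catenin KO libraries the lists changed further. Of the 5 named for *Cdh3*, 0 remained, and *Trim16*, *Dach1*, *Arl4c*, *Cdh13* and *Axin2* took their place over 14 libraries. Of those named for *Cdh4*, only *Glul* remained, at rank 1, followed by *Gja1*, the gene of the gap junction protein connexin 43, *Tmem144*, *Pnp* and *Trim62*. *Cdh13* (T-cadherin, a cadherin held to the membrane by a lipid anchor) and *Axin2* (a negative feedback gene of the Wnt pathway) differed from *Cdh3* by 0.38 and 0.39.

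Among the other cadherins, *Cdh13* rose with *Cdh3* and *Cdh4* in both knockouts. Of the 6 others that have a symbol in the tables (*Cdh1*, *Cdh2*, *Cdh11*, *Cdh13*, *Cdh15* and *Cdh23*), 1 rose and 1 fell in α-catenin KO. In QCKO, 1 rose and 2 fell. Symbols were given only to genes past a threshold in some deposited comparison, and of all genes with a symbol 16.9% (α-catenin KO) and 18.7% (QCKO) were called. *Cdh13* rose by 2.54 (SE 0.37, limma, adjusted p = 0.00163) in α-catenin KO and by 2.85 (SE 0.37, adjusted p = 0.000555) in QCKO. *Cdh11* had a log2 fold change of -1.65 (limma, adjusted p = 0.00466) and -1.47 (adjusted p = 0.00856) in these groups. *Cdh15*, known from muscle, had -3.00 in QCKO (limma, adjusted p = 0.00455) and -1.97 in α-catenin KO (adjusted p = 0.0539). *Cdh2* had -0.97 and -0.91 (adjusted p = 0.268 and 0.310), while *Cdh23* had 1.07 and 0.42 (adjusted p = 0.458 and 0.898) and *Cdh1* 0.59 and 0.43 (adjusted p = 0.915 and 0.957). The median over the 6 was -0.19 in α-catenin KO and -0.24 in QCKO, against 0.01 and -0.0046 over all genes tested. In β-catenin KO none of the 6 was called between high and low CHIR, a contrast in which 0.0762% of all genes with a symbol were called.

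**Figure D5:**
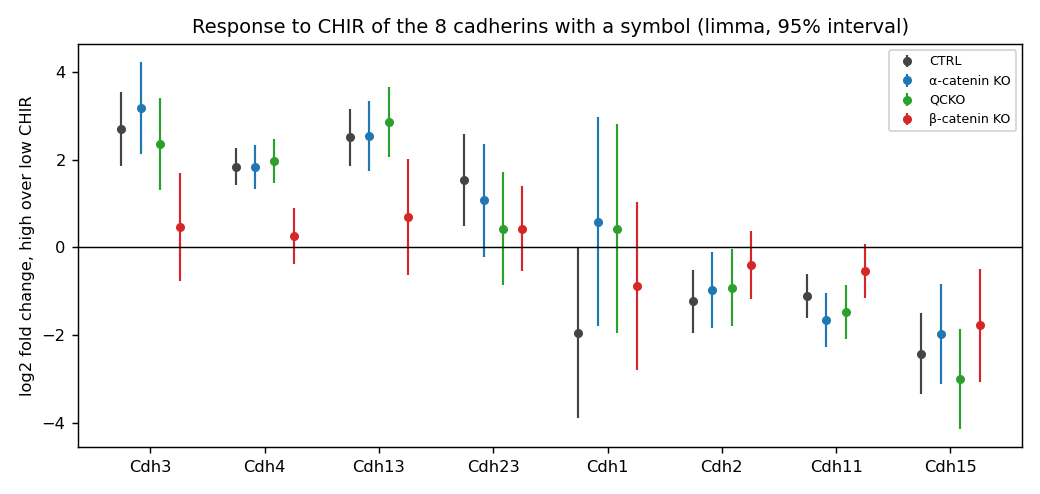
Log2 fold change of high over low CHIR from limma, with 95% intervals, for the 8 cadherins that have a symbol in the deposited tables, by genotype. *Cdh3*, *Cdh4* and *Cdh13* lie above 0 in CTRL, α-catenin KO and QCKO, and *Cdh2*, *Cdh11* and *Cdh15* below 0, while the intervals of *Cdh1* reach past 0 in all groups but CTRL.

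Of 15 cadherin-catenin complex partners, 4 had a symbol, of which 1 rose and 1 fell in α-catenin KO and 1 rose in QCKO (median -0.03 and -0.25). For these and the next lists, 16.9% (α-catenin KO) and 18.7% (QCKO) of all genes with a symbol were called. *Ctnnd2*, the gene of δ-catenin, which binds the cadherin tail near the membrane, rose by 3.87 (SE 0.49) in α-catenin KO and by 4.92 (SE 0.49) in QCKO (limma, adjusted p = 0.000568 and 6.94e-05). *Pkp4*, an armadillo protein of cell junctions, had -0.99 in α-catenin KO (adjusted p = 0.0374). Of 11 desmosome genes only *Dsc2*, a desmosomal cadherin, had a symbol, and it rose by 3.44 and 2.66 (adjusted p = 0.00173 and 0.00781). Of 27 epithelial junction and polarity genes 6 had a symbol, and only *Patj*, a polarity scaffold of tight junctions, passed the test, with a rise of 1.17 and 1.24 (adjusted p = 0.0295 and 0.0187, median of the 6 0.56 and 0.03).

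*Snai2* and *Zeb1*, transcription factors known to drive epithelial to mesenchymal transition, fell in both knockouts. Of the 7 listed regulators of that transition, 3 had a symbol, and these 2 were called in each knockout. Of all genes with a symbol, 16.9% (α-catenin KO) and 18.7% (QCKO) were called. *Snai2* had -2.60 and -2.70 and *Zeb1* had -2.57 and -3.11 in α-catenin KO and QCKO (limma, adjusted p = 0.00417, 0.00290, 0.00602 and 0.00148). *Snai1*, the other one with a symbol, had 0.32 and -0.38 (limma, adjusted p = 0.942 and 0.950). In high CHIR *Snai2* and *Zeb1* stood higher in β-catenin KO than in CTRL, by 2.06 (*Snai2*, limma, adjusted p = 0.0102) and 2.62 (*Zeb1*, adjusted p = 0.000640). They have a symbol only through a deposited comparison, which can be one with these CTRL libraries, so these values are a description. Both cadherins had lower values there, and a link was not tested.

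Of 14 Wnt feedback and effector genes 7 had a symbol, and in each of the knockouts 5 rose and 1 fell (*Tcf7l1*, a repressor among the Tcf factors, with -1.47 and -1.58). Their median was 3.19 (α-catenin KO) and 2.96 (QCKO). *Lgr5*, the other one, had -1.28 and -0.75 (limma, adjusted p = 0.116 and 0.447). *Notum*, which inactivates Wnt ligands, rose by 6.64 and 6.53, *Sp5* by 4.80 and 3.66, *Lef1* by 4.06 and 4.33 and *Axin2* by 3.19 and 2.96, all on the log2 scale. Of 9 induction genes 7 had a symbol, and 7 rose in α-catenin KO and 6 in QCKO (median 4.06 and 4.33), where *Pax2* had 1.33 (limma, adjusted p = 0.0715). *Wnt4* rose by 6.21 and 5.69, *Lhx1*, a transcription factor of the renal vesicle, by 5.27 and 4.36, *Emx2* by 4.59 and 4.42, and *Jag1* by 3.85 and 3.51. Beside these values the rise of *Cdh3* was 3.18 and 2.36 and that of *Cdh4* 1.83 and 1.96, both above those of *Tcf7* (1.04 and 1.31). The differences between genes were not tested. All 7 self-renewal genes, which mark uninduced NPCs, fell in both (median -3.66 and -3.67), with log2 fold changes of -6.25 and -6.92 for *Meox2*, -4.77 and -5.23 for *Six2*, -4.42 and -4.66 for *Osr1*, and -3.66 and -3.67 for *Foxc2*. Over all genes tested the medians were 0.01 and -0.0046, and of all genes with a symbol 16.9% and 18.7% were called.

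In β-catenin KO, 0 of these Wnt, induction and self-renewal genes were called between high and low CHIR, where 0.018% of all genes and 0.0762% of those with a symbol were called, so the count sets these lists apart from no other. In high CHIR, 7 of 7 self-renewal genes stood higher in β-catenin KO than in CTRL (median 2.88). Of all 3939 genes with a symbol 29.5% were called in this contrast, 822 of them higher and 340 lower. A symbol marks a gene that passed a threshold in some deposited comparison, which can be one with these libraries, so the counts and p-values of listed genes are a description. Of the induction genes 1 stood lower, *Pax2* with -1.83 (limma, adjusted p = 0.0129), and of the Wnt genes 1 stood higher, *Tcf7l1*, with 1.39 (adjusted p = 0.00142). *Lef1* and *Wnt4* had -1.52 and -2.45 (adjusted p = 0.212 and 0.103), next to -1.46 for *Cdh4* and -1.37 for *Cdh3*.

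Markers of other kidney cells did not all move one way. Of 13 ureteric epithelium markers 6 had a symbol, and their summed normalized count was 320 to 1457 in CTRL in low CHIR against 891 to 1078 in high CHIR. In α-catenin KO the sums were 429 to 1211 (low) and 1289 to 2322 (high), in QCKO 640.2 to 878 and 1838 to 2121, and in β-catenin KO 508 to 1051 and 593 to 1156. The sums thus overlapped between low and high CHIR in CTRL and β-catenin KO and did not in α-catenin KO and QCKO. *Wnt11*, the marker of the ureteric tip, reached at most 15.5 in any library. *Hoxb7* (584 to 749) and *Gata3* (171 to 354) had the highest counts of the list in CTRL in high CHIR. Of 10 stroma markers 2 had a symbol, with sums of 5851 to 7119 in low CHIR and 1166 to 2024 in high CHIR in CTRL. Of 8 endothelium markers 2 had a symbol, and in QCKO *Tek* rose (6.71, limma, adjusted p = 0.000206) while *Plvap* fell (-3.08, adjusted p = 0.0360). Their summed count in QCKO was 371 to 408 in low CHIR against 266 to 402 in high CHIR. The part of such cells in the levels of *Cdh3* and *Cdh4* was not tested. Of 8 leukocyte and 5 podocyte markers, 0 had a symbol.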

How the data were processed

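cDNA made from RNA of sorted cells was sequenced, and the authors deposited a signal per gene and library, a read count divided by a size factor of the library (normalized count). Programs in the submitters' processing notes include STAR, featureCounts, Salmon and DESeq2, and the builds GRCm38, mm10 and GRCh38, with no roles given. Reads were recovered from the steps of the values, of which 100.0% came out whole within 0.1 read in every library. In 2 libraries the size factor is too near 1 for this to tell much. Identifiers were paired with symbols (4316 genes) through the deposited comparison tables, whose other columns, 36 of them per-sample values and the rest DESeq2 fold changes and p-values, were not used.

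log2(normalized count + 1) was fitted in limma 3.58.1 (R 4.3.3) with 1 mean per group, on 14 libraries where β-catenin KO was not compared and otherwise on 20, over genes with a mean of at least 10. Alternatives were edgeR 4.0.16 and DESeq2 1.42.0 on recovered reads, the date as a replicate block, other pseudocounts, filters, normalization and sets of libraries, and leaving out each library in turn. The calling was tested on simulated data. The members, gene lists and tests were chosen with earlier results of these data known. Named genes are both members, the knockout targets, the induction genes, the 5 most similar genes per member and, per list, up to 4 called genes with the largest change. A most similar gene of *Cdh4* is not reported here.

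The date in the titles pairs the libraries of a replicate number. Deviations of CTRL and β-catenin KO libraries from their group means correlated across 10924 genes, which are not independent replicates, by -0.0077 to 0.759 in 18 pairs of the same number (16 over 0.1) and by -0.606 to 0.166 in 36 pairs of different numbers. Counting errors cover counting only, since no molecular barcodes are given.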

Additional observations from a re-analysis of the deposited data

Results flagged for a closer look

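*Six2*, a self-renewal gene given beside both cadherins as a sign of induction, had a different response to CHIR in β-catenin KO and in CTRL. The interaction term was 3.33 on the log2 scale (SE 0.40, limma, adjusted p = 0.000646). *Six2* has a symbol only through a deposited comparison. It fell in CTRL (log2 fold change -4.20), and that response is the term subtracted. This by itself favours a value above 0, so the p is a description and not an independent test. In β-catenin KO *Six2* had 993 ± 232 with low and 558 ± 210 with high CHIR (SD, n = 3 each). In CTRL it had 1375 ± 377 with low and 72.4 ± 10.3 with high CHIR (SD, n = 3 each). The interaction term was -2.24 for *Cdh3* and -1.58 for *Cdh4*, also given as a description, since both were chosen by their response in CTRL.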

How the results depend on the processing

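Comparisons of either gene with CTRL are not independent of how the genes were chosen, so their calls here are a description. Of 420 alternative values of *Cdh3* and *Cdh4* that a fit set against the threshold, 382 kept their direction and their side of it. The date as a replicate block brought calls of *Cdh3* in β-catenin KO against CTRL in high CHIR (-1.37) and of its interaction (-2.24), turned the sign of *Cdh3* in QCKO in high CHIR (-0.15), *Cdh4* in α-catenin KO in high CHIR (-0.0020) and *Cdh3* in α-catenin KO in low CHIR (0.025), and changed no other call of the members. That last value was 0.052 by edgeR and 0.039 by DESeq2. DESeq2 called the β-catenin KO interaction of *Cdh4* (-1.63). Quantile normalization gave 1.64 for the CTRL response of *Cdh4* and 0.084 for its α-catenin KO interaction. The QCKO response of *Cdh3* (2.36) was not called with 20 libraries, nor *Cdh4* in β-catenin KO in high CHIR (-1.46) with only the groups compared. The mean difference between the responses of *Cdh3* and *Cdh4* was 0.87 over the pairs of CTRL, α-catenin KO and QCKO, 0.87 without the CTRL pairs, 0.87 with pairs averaged per date and 0.89 with both, the last pair of settings chosen after seeing the data. With both β-catenin KO libraries of replicate 1 left out, a choice made after seeing the data, *Cdh4* in low CHIR was -0.23. The cause of these changes was not tested.

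Leaving out each library in turn, the response of *Cdh3* ranged from 2.48 to 3.87 in α-catenin KO, from 2.04 to 2.67 in QCKO and from -0.11 to 1.18 in β-catenin KO, and that of *Cdh4* from -0.065 to 0.62 in β-catenin KO. Against CTRL, *Cdh3* ranged from -0.00030 to 0.74 (QCKO, low CHIR), -0.10 to 0.17 (QCKO, high) and -0.71 to 0.68 (α-catenin KO, low), and *Cdh4* from -0.32 to 0.16, -0.27 to 0.35 and -0.072 to 0.13 in these, and from -0.23 to 0.45 in β-catenin KO in low CHIR. *Cdh3* ranged from 0.45 to 1.44 in that last contrast, from 0.16 to 0.76 in α-catenin KO in high CHIR and from -1.74 to -0.65 in β-catenin KO in high CHIR. Interactions of *Cdh3* ranged from -0.22 to 1.17 (α-catenin KO), -0.66 to 0.074 (QCKO) and -2.81 to -1.52 (β-catenin KO), and those of *Cdh4* from -0.090 to 0.11, -0.19 to 0.43 and, in β-catenin KO, -1.91 to -1.23. The difference of responses ranged from 0.50 to 1.23 without a replicate.

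Counts of called genes ranged over the alternatives other than leaving out 1 library from 761 to 2556 (1760, CTRL response), 504 to 1186 (725, α-catenin KO response), 540 to 1855 (814, QCKO), 0 to 51 (3, β-catenin KO), 240 to 2881 (1757, β-catenin KO against CTRL, high CHIR) and 50 to 400 (112, its interaction). For β-catenin KO against CTRL in low CHIR the range was 0 to 203 (11), with 203 when both libraries of replicate 1 were left out. They were 0 to 7 (0) and 0 to 2 (1) for QCKO against CTRL in high and low CHIR, and 0 to 4 (0) and 0 to 1 (0) for α-catenin KO. With 1 library left out the first 6 contrasts and then the β-catenin KO contrast in low CHIR had 1053 to 2986, 281 to 496, 368 to 399, 1 to 4, 863 to 3060, 46 to 207 and 0 to 53. Counting error was at most 5.68% for *Cdh3* and 2.54% for *Cdh4*, and groups held 2 or 3 libraries each.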
